A study of Mus musculus with 3 samples.

Results

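The cells described here are Smoc2 and Dpep1 fibroblasts of the aged mouse thymus. They were selected on measured counts: a called cell barcode had more than 1000 genes, under 20% mitochondrial counts, at least 1 count (UMI, a unique transcript molecule) of Pdgfra, at least 3 of Smoc2 and Dpep1 together, no Pi16, fewer than 3 of Ptn, and none of Epcam, Pecam1, Upk3b or Ptprc. The selection held 644 barcodes of 17677 called ones, of which 14956 passed the quality limits and 4449 were fibroblasts by Pdgfra and the same 4 exclusions. The data were single-cell RNA sequencing of nonhematopoietic (CD45-) thymic stroma of untreated C57BL/6 mice of 20 months, in 3 libraries that were each the sole library of their group. Foxn1Lin female and Foxn1Lin male carried a Foxn1 lineage trace, in which Foxn1-Cre, active in thymic epithelial cells, removes a stop cassette before the tdTomato reporter at R26, and the wild-type male library carried neither. The extraction protocol speaks of pools of female thymi for every library, the male ones included, and the cell type field of the wild-type library reads CD45-PECAM1+ while its title reads CD45-.

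Fibroblasts build the capsule, the septa and the perivascular matrix of the thymus and feed epithelial cells and thymocytes with growth factors and chemokines. Pi16 and Dpp4 are commonly used for fibroblasts of the capsule and of vessel sheaths, and Ptn and Postn for those of the medulla. SMOC2 is a secreted calcium-binding matrix protein, and DPEP1 is a membrane dipeptidase that cleaves leukotriene D4 and glutathione products. On GRCm38 Smoc2 lies on the plus strand of chromosome 17 from 14279506 to 14404790, and Dpep1 on the plus strand of chromosome 8 from 123186242 to 123201812.

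Smoc2 and Dpep1 fibroblasts were 362 of 1759 fibroblasts in Foxn1Lin female, or 20.6% (95% Clopper-Pearson interval 18.7 to 22.5). They were 98 of 914 in Foxn1Lin male, or 10.7% (8.79 to 12.9), and 184 of 1776 in the wild-type male, or 10.4% (8.98 to 11.9). The female interval overlapped neither male interval, and the male intervals overlapped each other. The exclusions had removed 901 of 2660 Pdgfra barcodes in the female, 542 of them with Pecam1, against 150 of 1064 and 309 of 2085 in the males, so the denominators were reduced unequally. These intervals and those that follow cover counting error only, and with 1 library per group no difference between groups was tested. When every barcode was first thinned to 2000 UMIs and the whole rule applied again, the shares were 24.5%, 8.17% and 10.5%. The remaining fibroblasts differed in makeup: Pi16 fibroblasts (Pi16 present, Ptn below 3) were 47.6%, 8.10% and 12.8% of fibroblasts, and Ptn fibroblasts (Ptn at least 3, no Pi16) were 17.6%, 69.1% and 64.8%, in the same order of libraries. The mean of all other fibroblasts was therefore mostly a Pi16 mean in the female and mostly a Ptn mean in the males.

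**Figure D1:**
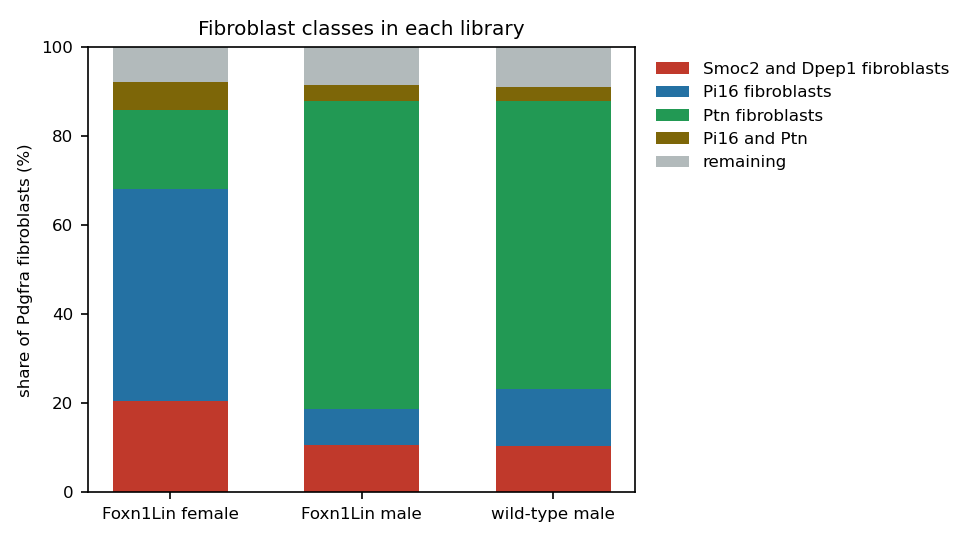
Share of Pdgfra fibroblasts in percent (vertical axis) that fell in each class, for each library (bars, stacked to 100%). Smoc2 and Dpep1 fibroblasts took 20.6% of the female fibroblasts and 10.7% and 10.4% of the male ones, and Pi16 and Ptn fibroblasts exchanged places as the most frequent class.

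Depth differed between classes. Called libraries held 53366016, 33386621 and 61258534 UMIs, and the median Smoc2 and Dpep1 fibroblast had 6630.5, 8481.5 and 6797.5 UMIs, against 6976, 9331.5 and 8231.5 for other fibroblasts, 7817, 10382.5 and 8271 for Pi16 fibroblasts and 5449, 9437.5 and 8423.5 for Ptn fibroblasts. Between 3 and 14 called barcodes were shared by any pair of libraries. The highest Scrublet doublet scores covered 6, 3 and 1 of the selected barcodes. Epithelial, endothelial and hematopoietic markers were below the level in empty droplets, which carry free RNA: in UMIs per 1e6 UMIs of the summed class (CPM) 8 epithelial genes summed to 43.3 to 184 in Smoc2 and Dpep1 fibroblasts and 99.7 to 161 in other fibroblasts, against 2583 to 4019 in empty droplets, 8 endothelial genes to 44.5 to 108 against 833 to 1638, and 9 hematopoietic genes to 22.2 to 56.8 against 348 to 692. The hematopoietic sum was 56.8, 22.2 and 27.3 CPM in the selected cells (Foxn1Lin female, Foxn1Lin male, wild type) and 46.8, 14.3 and 15.4 CPM in other fibroblasts, higher in each library. The 9 mural genes summed to 300 to 391 in them and to 443 to 782 in other fibroblasts, and Acta2, Myh11, Des and Tagln of them were lower in the comparison with other fibroblasts described next. The 6 mesothelial genes summed to 307, 136 and 273, of which Wt1 alone gave 294, 136 and 271, while Upk1b, Nkain4 and Lrrn4 were at 0 in both male libraries. A cell's own RNA lowers the CPM of free RNA in its barcode, so a level below empty droplets does not tell where such transcripts came from. The part of such transcripts in the results was not tested.

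Smoc2 and Dpep1 were not restricted to the selected barcodes. The selection made both high by construction: Smoc2 stood at 1449, 740 and 953 CPM in Smoc2 and Dpep1 fibroblasts (values run from Foxn1Lin female over Foxn1Lin male to the wild type throughout), and at 1041, 367 and 593 in Pi16 fibroblasts. Of 1138 Pi16 fibroblasts 987 also had at least 3 UMIs of Smoc2 and Dpep1, as had 796 of 2092 Ptn fibroblasts. The selected cells are thus those with Smoc2 or Dpep1 that lacked a Pi16 count and had little Ptn, and a Pi16 count of 0 in a barcode does not show that the gene was off. Most of them, 509, held both transcripts, 52 held only Smoc2 and 83 only Dpep1.

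Abca8a, a lipid transporter of the ABCA family, and Svep1, a large secreted adhesion protein, came with the cell type as markers, were not used by the rule and were left untested. Abca8a stood at 1252, 938 and 920 CPM in Smoc2 and Dpep1 fibroblasts, 1017, 498 and 568 in Pi16 fibroblasts and 489, 631 and 671 in Ptn fibroblasts. Svep1 stood at 384, 368 and 393 CPM, 286, 246 and 320, and 130, 129 and 189 in the same classes. Both were thus highest in the selected class in each library, with Svep1 nearly even over the libraries there. In the 57 barcodes exactly at the threshold Abca8a was at 657, 639 and 478 CPM, and in the 56 barcodes 1 UMI below it, with no Pi16 and little Ptn, at 692, 468 and 565.

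The first question was in which other genes these cells differed from all remaining fibroblasts. Counts were summed per library and class and compared with edgeR's quasi-likelihood test with the library as a block, so that a gene passed when its difference recurred over the 3 libraries. The genes of the rule came from these same libraries, so an adjusted p (Benjamini-Hochberg, over all genes tested) describes that recurrence and is no independent proof of a cell type. Among 12649 genes 122 were higher (0.965%) and 194 lower (1.53%) in Smoc2 and Dpep1 fibroblasts. The median log2 fold change of all genes was -0.0026. A count rested on each library: without the wild-type male library 14 genes were higher and 55 lower, without Foxn1Lin male 28 and 113, and without Foxn1Lin female 456 and 462. Without the library block edgeR passed 0 genes, with 507 at an unadjusted p under 0.05.

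Secreted modulators of BMP, WNT and activin signaling were among the genes that were higher. Bmper, which encodes a secreted BMP-binding protein, stood at 121, 171 and 152 CPM in Smoc2 and Dpep1 fibroblasts, and at 51.4, 27.0 and 28.9 CPM in other fibroblasts. The ranges did not overlap, and the log2 fold change was 2.08 ± 0.25 (SE; edgeR adjusted p = 0.00646). Sfrp1, a secreted WNT antagonist, stood at 157, 76.1 and 152 CPM against 64.8, 15.6 and 49.0, a log2 fold change of 1.68 ± 0.17 (edgeR adjusted p = 0.00437). Fst, which encodes the activin inhibitor follistatin, was at 171, 173 and 161 CPM against 95, 52.8 and 34.7, a log2 fold change of 1.59 ± 0.23 (edgeR adjusted p = 0.0111). For Sfrp1 and Fst too the lowest Smoc2 and Dpep1 library lay above the highest of the others. Fst did not pass against Pi16 fibroblasts (log2 fold change -0.06, edgeR adjusted p = 0.899), nor against only fibroblasts that also lacked Pi16 and had little Ptn (1.38, edgeR adjusted p = 0.207). Inhba, the activin A subunit that follistatin binds, went the other way, at 9.67, 9.36 and 8.84 CPM against 21.7, 56.2 and 31.5 (log2 fold change -1.73 ± 0.25, edgeR adjusted p = 0.0114), and it did not pass after thinning to 2000 UMIs (-1.01, edgeR adjusted p = 0.169). Dkk2, a secreted WNT modulator, was at 11.7, 33.9 and 68.5 CPM against 44.6, 142 and 190 (log2 fold change -1.75 ± 0.16, edgeR adjusted p = 0.00251), and this direction turned when only fibroblasts that also lacked Pi16 and had little Ptn were the comparison (log2 fold change 1.14). Of 28 measured genes of the list of WNT, BMP and TGF-beta modulators 3 were higher, 4 were lower and 21 did not pass, beside 0.965% and 1.53% over all genes, with a median log2 fold change of 0.02.

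Neurotrophin-3 and its receptor gene moved in opposite directions. Ntf3, the ligand, was at 36.3, 22.2 and 29.5 CPM in Smoc2 and Dpep1 fibroblasts and at 12.7, 6.62 and 8.71 in the others (log2 fold change 1.67 ± 0.18, edgeR adjusted p = 0.00463). Ntrk3, the receptor, was at 18.5, 5.85 and 8.10 CPM against 43.3, 43.0 and 45.5 (log2 fold change -1.84 ± 0.27, edgeR adjusted p = 0.0118). For both genes the ranges of the classes did not overlap. Against the fibroblasts that also lacked Pi16 and had little Ptn, neither passed, and after thinning Ntf3 did not (log2 fold change 1.16, edgeR adjusted p = 0.0634).

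The genes used by the study to mark intermediate fibroblasts, Inmt and Gpx3, both rose, and as the study's own markers they are no independent evidence of direction. Inmt, which encodes an indolethylamine N-methyltransferase, lies on the minus strand of chromosome 6 from 55170626 to 55175043, and Gpx3, which encodes the secreted glutathione peroxidase, on the plus strand of chromosome 11 from 54902453 to 54910377. Inmt stood at 347, 417 and 333 CPM in Smoc2 and Dpep1 fibroblasts and at 210, 119 and 123 CPM in other fibroblasts, with no overlap (log2 fold change 1.34 ± 0.19, edgeR adjusted p = 0.0104). After thinning to 2000 UMIs, 39.7%, 44.3% and 30.0% of the cells held an Inmt UMI, against 24.9%, 15.7% and 16.5%. Gpx3 stood at 1190, 823 and 817 CPM against 735, 264 and 255 (log2 fold change 1.35 ± 0.19, edgeR adjusted p = 0.0104). In its lowest library Gpx3 was still above the highest of the others. Without the wild-type male library neither gene passed, and against only the fibroblasts that also lacked Pi16 and had little Ptn Inmt did not (log2 fold change 0.87, edgeR adjusted p = 0.0726).

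Because Inmt and Gpx3 moved together, the windows from 250 bases before to 50 after their start sites are shown, from RefSeq on GRCm38.p6, with capitals for TATAAA or CCAAT on either strand (TTTATA and ATTGG are the reverse strand forms). The Inmt window, chr6:55174941-55175240 on the minus strand, held 2 copies of TATAAA and 0 of CCAAT, and the Gpx3 window, chr11:54902604-54902903 on the plus strand, held 0 and 2. TATAAA stood in 13.6% and CCAAT in 37.4% of the 32851 windows of this length. These start sites differ from the gene starts given above, and the Gpx3 window lies inside the span given there for the gene. A match is a description of these letters.
Inmt: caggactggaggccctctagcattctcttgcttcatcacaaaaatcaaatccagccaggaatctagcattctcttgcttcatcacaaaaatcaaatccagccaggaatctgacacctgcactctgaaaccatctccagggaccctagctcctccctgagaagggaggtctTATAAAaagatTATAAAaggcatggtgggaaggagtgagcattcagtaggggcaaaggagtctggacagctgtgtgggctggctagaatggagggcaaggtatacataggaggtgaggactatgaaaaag
Gpx3: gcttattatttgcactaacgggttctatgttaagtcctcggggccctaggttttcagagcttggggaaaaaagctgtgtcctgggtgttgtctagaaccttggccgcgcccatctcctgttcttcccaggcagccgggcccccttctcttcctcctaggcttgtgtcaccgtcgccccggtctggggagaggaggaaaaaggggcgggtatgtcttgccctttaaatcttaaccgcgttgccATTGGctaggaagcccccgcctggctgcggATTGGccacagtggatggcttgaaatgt

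Of 38 measured growth factors and chemokines of the thymus 7 were higher, 4 were lower and 27 did not pass, beside 0.965% and 1.53% over all genes, with a median log2 fold change of -0.12. Fgf7 and Fgf10, which act on epithelial cells, were higher with log2 fold changes of 1.08 ± 0.16 and 0.99 ± 0.17 (edgeR adjusted p = 0.0115 and 0.0184). Against Pi16 fibroblasts Fgf10 passed and Fgf7 did not (log2 fold changes 0.59 and 0.43, edgeR adjusted p = 0.0414 and 0.137). Fgf10 stood at 187, 295 and 326 CPM against 119, 102 and 192. Penk, the precursor of enkephalins, was at 129, 495 and 199 CPM against 81.1, 162 and 75.6 (log2 fold change 1.25 ± 0.17, edgeR adjusted p = 0.0104), and its ranges overlapped because the level differed between libraries in both classes. Cxcl12, a chemokine for thymic progenitors, was at 436, 226 and 351 CPM against 241, 130 and 204 (log2 fold change 0.84 ± 0.11, edgeR adjusted p = 0.00756). Il34, Pdgfa, Fgf1 and Bmp2 were lower. Without the wild-type male library 1 gene of this list was higher and 0 lower, and without Foxn1Lin male 3 and 2. Among genes of inflammatory secretion Il6, Cxcl1 and Mmp3 were higher and Spp1 and Cdkn2a lower, with 17 of 22 not passing, beside the same shares over all genes. Il6 stood at 203, 658 and 694 CPM against 143, 288 and 231 (log2 fold change 1.12 ± 0.19, edgeR adjusted p = 0.0189).

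The other genes that were higher by the naming rule were Alkal2, a ligand of the receptor kinase ALK, Gpr39, a zinc-sensing receptor, Adam23 and Adam19 of the ADAM family, Ptprd, a receptor tyrosine phosphatase, and Jchain. Their log2 fold changes ran from 1.38 for Adam19 to 1.97 for Alkal2, and to 2.82 for Jchain. With at least 5 UMIs of Smoc2 and Dpep1 Jchain did not pass (1.43, edgeR adjusted p = 0.252), nor did Gpr39 after thinning (1.13, edgeR adjusted p = 0.0828). Those lower were Pcdh15, a protocadherin, Cpe, a carboxypeptidase that processes peptide hormones, Adgrl3, an adhesion receptor, Tmem132c, Nav2, Mmp9, a gelatinase, Ltc4s, the leukotriene C4 synthase, Csf2rb, a cytokine receptor subunit, and Tnfrsf21, a death-domain receptor. Pcdh15 had the lowest log2 fold change among them, -2.93 ± 0.14 (edgeR adjusted p = 0.000115), at 10.5, 14.0 and 89.1 CPM against 88.8, 125 and 629. Cpe was at 12.9, 45.7 and 27.3 CPM against 52.0, 247 and 238 (log2 fold change -2.53 ± 0.19, edgeR adjusted p = 0.00113). Without the wild-type male library Jchain, Alkal2, Gpr39, Fst, Adam23, Ptprd, Adam19, Ntrk3, Nav2, Mmp9 and Inhba did not pass either, and without Foxn1Lin male Alkal2, Gpr39, Fst, Adam23, Adam19 and Gpx3 did not. Against only fibroblasts without Pi16 and with little Ptn the log2 fold change was -0.19 for Mmp9, -0.88 for Ltc4s and 0.52 for Gpr39, and none of the 3 passed (edgeR adjusted p = 0.858, 0.0593 and 0.548).

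**Figure D2:**
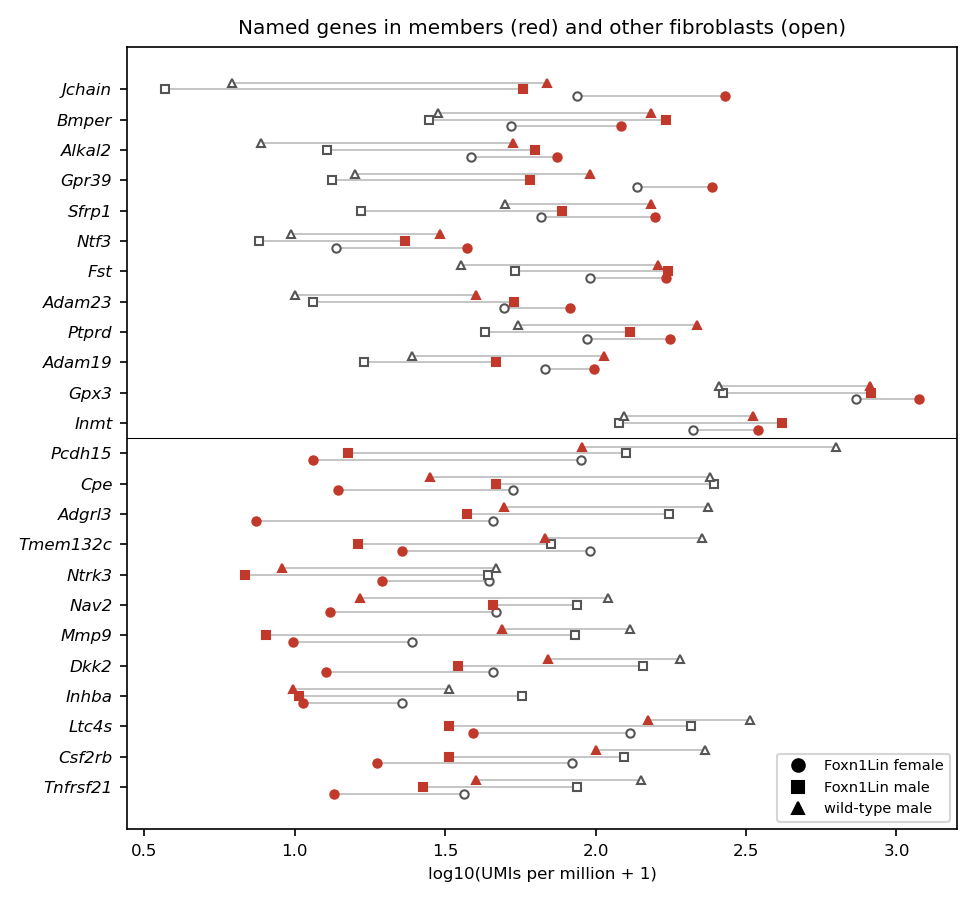
Level of the 24 genes named by rule, as log10 of CPM plus 1 (horizontal axis), in Smoc2 and Dpep1 fibroblasts (red) and other fibroblasts (open), with a marker shape per library and a gray line joining both classes of a library. Above the black line red lies to the right of open in all 3 libraries, and below it to the left.

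Immunoglobulin transcripts rested on few barcodes. Jchain, the joining chain of secreted antibodies, stood at 269, 56.2 and 67.8 CPM in Smoc2 and Dpep1 fibroblasts, and single barcodes held 48.7%, 72.9% and 88% of its UMIs. Igkc, the kappa light chain constant region, was at 5769, 2516 and 561 CPM, and 1 barcode per library held 47.4%, 94.1% and 93.4% of these UMIs. Without that barcode Igkc stood at 3065, 151 and 37.0 CPM, against 2036, 986 and 1867 CPM in empty droplets. Other fibroblasts, also without their fullest barcode, stood at 1089, 22 and 47.6 CPM and Ptn fibroblasts at 144, 16.7 and 39.1 CPM, so that in the wild-type library the selected cells were then below both. Pi16 fibroblasts without theirs stood at 736, 9.84 and 32.4 CPM, below the selected cells in each library. Jchain without its fullest barcode was at 139, 15.4 and 8.14 CPM in the selected cells and at 26.6, 1.96 and 4.71 CPM in other fibroblasts. Igkc and Ighm belong to the immunoglobulin gene family, and plasma cells make them and Jchain. Their part as free RNA or as a second cell in a droplet was not tested.

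Against Pi16 fibroblasts, which share Smoc2 and Dpep1, the capsular genes were lower. Of 10156 genes tested 480 were higher (4.73%) and 443 lower (4.36%). All 10 measured genes of the capsular list were lower, with a median log2 fold change of -2.43 beside 0.02 over all genes. Smpd3, a sphingomyelinase, stood at 126, 45.7 and 30.9 CPM in Smoc2 and Dpep1 fibroblasts and at 565, 440 and 431 CPM in Pi16 fibroblasts (log2 fold change -2.93 ± 0.26, edgeR adjusted p = 0.000141). Dpp4, a membrane dipeptidyl peptidase of progenitor-like fibroblasts, was at 33.0, 14.0 and 21.4 CPM against 167, 118 and 248 (log2 fold change -2.86 ± 0.22, edgeR adjusted p = 6.76e-05). Fn1, fibronectin, was at 192, 89.0 and 274 CPM against 862, 929 and 1352 (log2 fold change -2.55 ± 0.21, edgeR adjusted p = 8.43e-05). The ranges of both classes did not overlap for Smpd3, Dpp4 or Fn1. Pi16 itself was part of the rule and of none of these counts, and the list, which holds Dpp4 and Smpd3 of the study's capsular markers and other genes chosen with earlier results known, is no independent evidence of direction. Without the wild-type male library 9 of the 10 were lower.

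Of the 12 genes named by rule in this comparison the lowest was Sema3e, a semaphorin, at 1.21, 0 and 0.737 CPM against 87.2, 123 and 53.8 (log2 fold change -6.54 ± 0.34, edgeR adjusted p = 1.18e-05). Car8, Limch1, Efhd1, Edn1 (endothelin-1) and Ackr3, a scavenger receptor of CXCL12, followed with log2 fold changes from -3.91 to -3.30. Ackr3 was at 37.9, 22.2 and 52.3 CPM against 307, 446 and 425. Higher were Igkc and Ighm, both immunoglobulin genes, and Cxcl14, Rem1, Lin7a and Itga8. Cxcl14, a chemokine, was at 82.6, 151 and 136 CPM against 23.3, 6.08 and 29.5 (log2 fold change 2.35 ± 0.29, edgeR adjusted p = 0.000869), with no overlap. Itga8, the integrin alpha 8 subunit, was at 22.2, 66.7 and 75.9 CPM against 12.1, 4.87 and 8.13 (log2 fold change 2.12 ± 0.41, edgeR adjusted p = 0.00898). Without the wild-type male library Igkc, Ighm, Cxcl14, Rem1 and Itga8 did not pass, and with at least 5 UMIs of Smoc2 and Dpep1 Igkc and Ighm did not (edgeR adjusted p = 0.287 and 0.0771), nor did Ighm with DESeq2 (adjusted p = 0.283).

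Thymic growth factors and chemokines were higher in 13 and lower in 3 of 34 measured genes against Pi16 fibroblasts, beside 4.73% and 4.36% over all genes. Il34, a ligand of the CSF1 receptor, stood at 73.8, 118 and 202 CPM against 41.4, 9.73 and 50.3 (log2 fold change 1.71 ± 0.31, edgeR adjusted p = 0.00645). Il7, which thymocyte progenitors need, was low, at 11.3, 9.36 and 13.3 CPM against 3.88, 1.22 and 4.57 (log2 fold change 1.66 ± 0.35, edgeR adjusted p = 0.0143). Both genes had classes that did not overlap. Without the wild-type male library the list had 0 genes higher and 1 lower (edgeR), and over all genes 31 were higher and 88 lower. Of 18 basement membrane genes 8 were higher and 1 lower, beside 4.73% and 4.36% over all genes. Markers of other cells that make basement membrane moved too: the endothelial sum was 108, 44.5 and 58.9 CPM against 89.1, 13.4 and 31.5 in Pi16 fibroblasts, the mural sum 300, 391 and 343 CPM against 247, 391.7 and 194, the mural genes Notch3 and Des and the Schwann cell gene Ngfr were higher and mural Acta2 was lower, and their part in these counts was not tested. Col4a1, a chain of type IV collagen and one of those higher, stood at 1132, 1182 and 721 CPM against 753, 833 and 375.

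Against Ptn fibroblasts the same capsular list stood on the other side. Of 10862 genes 607 were higher (5.59%) and 617 lower (5.68%). Of the 10 capsular genes 8 were higher and none was lower, with a median log2 fold change of 2.59. Fn1 stood at 19.2, 4.08 and 6.31 CPM in Ptn fibroblasts, below each library of the Smoc2 and Dpep1 fibroblasts (log2 fold change 4.55 ± 0.35, edgeR adjusted p = 0.000113). Smpd3 was at 14.2, 3.14 and 2.01 CPM there and Dpp4 at 7.12, 0.314 and 1.63. Each of Fn1, Smpd3 and Dpp4 was thus highest in Pi16 fibroblasts, lower in Smoc2 and Dpep1 fibroblasts and lowest in Ptn fibroblasts in every library. Both comparisons share the Smoc2 and Dpep1 sums, so their values stand side by side and are not independent.

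Postn and Spon1 of the medullary list took the reverse order. Postn, periostin, stood at 93.9, 228 and 928 CPM in Smoc2 and Dpep1 fibroblasts, 46.8, 92.5 and 247 in Pi16 fibroblasts and 862, 973 and 1529 in Ptn fibroblasts. Spon1, a matrix protein, stood at 276, 288 and 604 CPM, 102, 36.5 and 153, and 637, 624 and 959. Both passed against Pi16 fibroblasts (log2 fold changes 1.44 and 1.99) and against Ptn fibroblasts (-1.96 and -0.97), with edgeR adjusted p values from 0.000437 to 0.0127. Postn in the wild-type male library was close to the level of Ptn fibroblasts in the Foxn1Lin libraries, so its ranges overlapped. Of 8 medullary genes 3 were higher (Cxcl14, Spon1 and Postn) and 2 lower (Mfap5 and Fbn1) against Pi16 fibroblasts, and 1 was higher (Mfap5) and 2 lower (Postn and Spon1) against Ptn fibroblasts, where 4.73% and 4.36% and then 5.59% and 5.68% of all genes were called. Mfap5, a microfibril protein, stands in the capsular list as well and followed its order.

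Inmt and Penk were highest in the selected class. Inmt stood at 228, 203 and 210 CPM in Pi16 fibroblasts and 159, 87.7 and 108 in Ptn fibroblasts, below the 333 to 417 of the Smoc2 and Dpep1 fibroblasts (log2 fold changes 0.76 ± 0.13 and 1.68 ± 0.20, edgeR adjusted p = 0.00418 and 0.000839). Penk passed against both as well, with log2 fold changes of 0.71 and 1.47 (edgeR adjusted p = 0.00548 and 0.00103). Without the fullest barcode of each class Penk stood at 126, 463 and 185 CPM in the selected cells. Pi16 fibroblasts then stood at 87.2, 226 and 119 CPM and Ptn fibroblasts at 66.5, 136 and 64.8 CPM. Without the wild-type male library Penk did not pass against Pi16 fibroblasts. Gpx3 passed against Ptn fibroblasts (2.26 ± 0.13, edgeR adjusted p = 2.05e-05) and did not against Pi16 fibroblasts (0.24 ± 0.11, edgeR adjusted p = 0.224), where it stood at 957, 708 and 722 CPM. Wt1, a mesenchymal and mesothelial transcription factor, was at 338, 302 and 294 CPM in Pi16 fibroblasts and at 7.12, 7.69 and 21.5 in Ptn fibroblasts (log2 fold change 4.18 ± 0.25 against the latter, edgeR adjusted p = 3.26e-05).

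**Figure D3:**
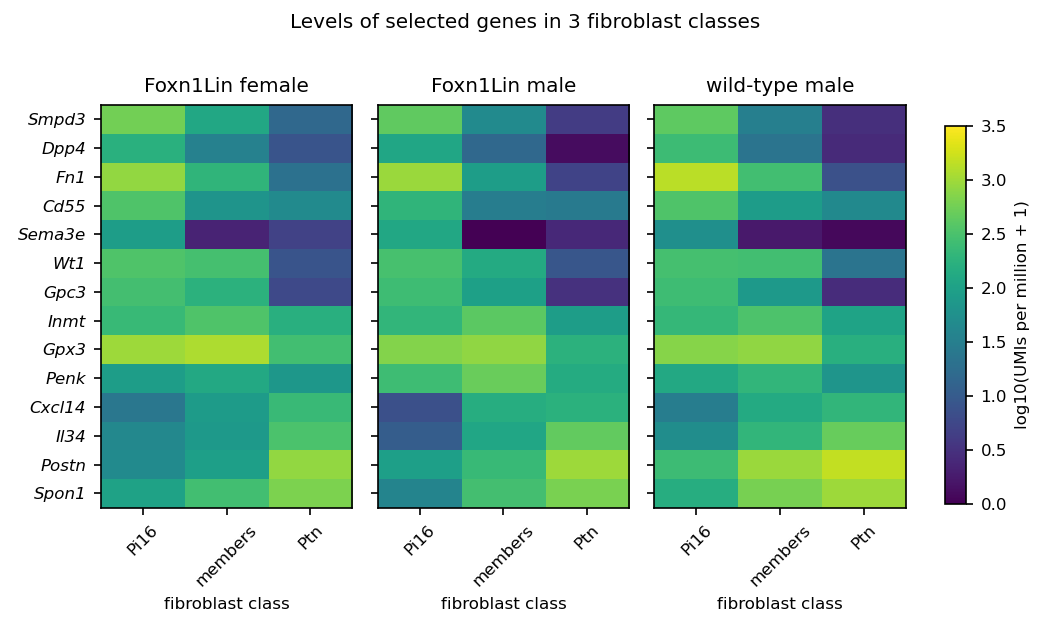
Level of 14 genes (rows) in Pi16, Smoc2 and Dpep1 (labelled members) and Ptn fibroblasts (columns) of each library (panels), colored by log10 of CPM plus 1. Smpd3, Dpp4, Fn1 and Cd55 grow darker from left to right, Postn, Spon1 and Il34 lighter, and Inmt and Penk are lightest in the middle column.

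The genes named by rule that were higher than in Ptn fibroblasts were Vit, Gpc3, Igkc, Ighm, Alkal2 and Tmeff2. Ighm did not pass without Foxn1Lin female, without Foxn1Lin male or without the highest doublet scores, and Igkc did not with at least 5 UMIs of Smoc2 and Dpep1. Vit, which encodes the matrix protein vitrin, was at 205, 73.7 and 75.9 CPM against 2.19, 1.10 and 2.29 (log2 fold change 5.62 ± 0.24, edgeR adjusted p = 6.99e-06). Gpc3, the heparan sulfate proteoglycan glypican-3, was at 174, 97.2 and 76.6 CPM against 4.93, 2.20 and 1.82 (log2 fold change 5.36 ± 0.17, edgeR adjusted p = 3.87e-06). For both the lowest library of the selected cells was far above the highest of the Ptn fibroblasts. Lower were Adgrb3, Cpne4, Dio2, Cemip, Pcdh15 and Pla2g7. Dio2, which activates thyroid hormone, was at 0.403, 4.68 and 1.47 CPM against 24.6, 50.8 and 41.9 (log2 fold change -4.46 ± 0.36, edgeR adjusted p = 0.000139), and Cemip, which takes part in hyaluronan breakdown, was at 1.61, 0 and 8.84 against 36.7, 22.8 and 62.5. Matrix proteases and their inhibitors were higher in 16 and lower in 3 of 25 measured genes, beside 5.59% and 5.68% over all genes, with Lox, Timp1 and Mmp2 among those higher. Thymic growth factors and chemokines were higher in 14 and lower in 6 of 35 (9 and 8 without the wild-type male library), and WNT, BMP and TGF-beta modulators in 9 and 6 of 25.

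**Figure D4:**
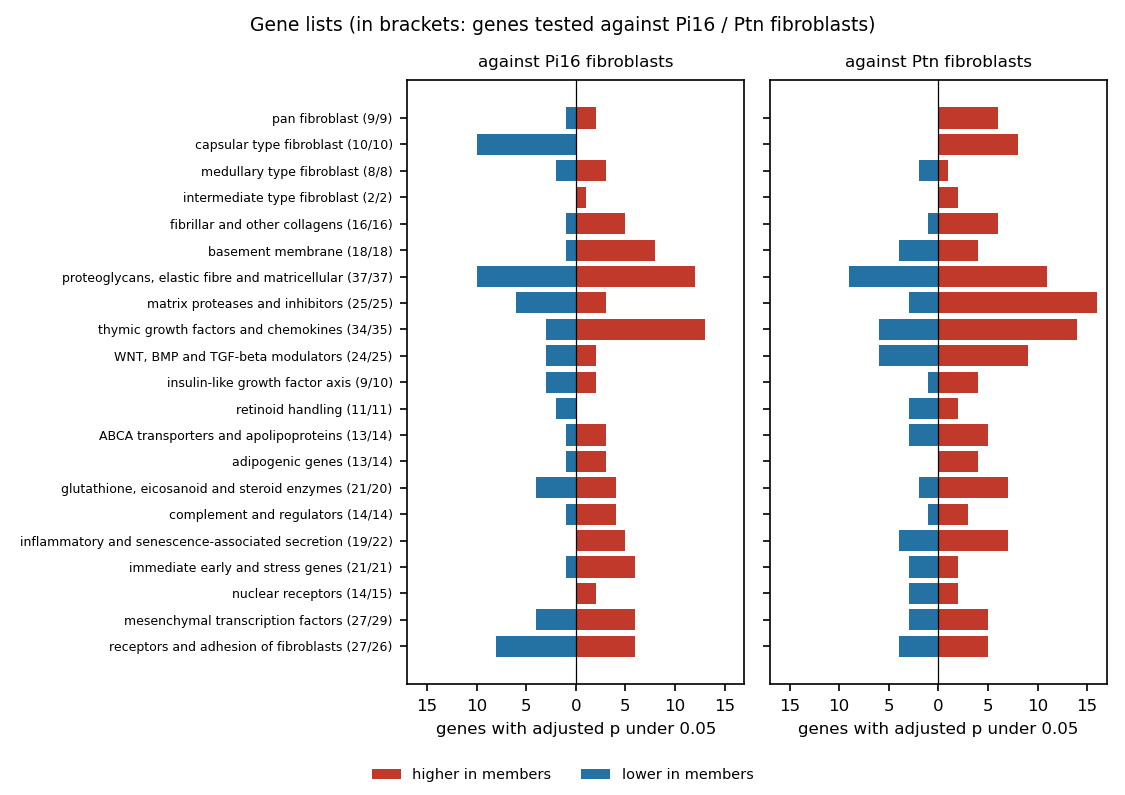
Number of genes of each list that passed edgeR's test at an adjusted p under 0.05 (horizontal axis; red to the right, higher, and blue to the left, lower, in Smoc2 and Dpep1 fibroblasts), against Pi16 (left) and Ptn fibroblasts (right). The capsular list is 10 lower on the left and 8 higher on the right, and the growth factor list is mostly red on both sides.

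Cells with only Smoc2 and cells with only Dpep1 were compared next. Of 3478 genes edgeR passed 0 higher in Smoc2-only cells (0%) and 10 lower (0.288%), with 203 at an unadjusted p under 0.05, and DESeq2 gave 0 and 9, of which 7 were shared with the 10. The 10 were Igkc, Gdf10, Fmo2, C7, Pi15, Abcc9, Penk, Inmt, Apoe and Mt1. Gdf10, a secreted BMP family protein, was at 17.1, 0 and 24.9 CPM in Smoc2-only cells and at 144, 255 and 176 CPM in Dpep1-only cells (log2 fold change -3.27 ± 0.58, edgeR adjusted p = 0.0446), and with DESeq2 neither it nor Igkc or Pi15 passed. C7, a complement component, was at 0, 321 and 31.1 against 41.1, 1076 and 598. Dpep1-only cells were higher in each library for both genes, and C7 levels overlapped between classes. These sums rest on 27, 7 and 18 Smoc2-only cells and 29, 28 and 26 Dpep1-only cells, with median depths of 4405, 4659 and 8224 UMIs and of 5985, 9456.5 and 8219 UMIs. No gene passed without the wild-type male library (182 at an unadjusted p under 0.05) or without the highest doublet scores (181), 2 were higher and 3 lower without Foxn1Lin male, and 9 and 14 without Foxn1Lin female. Igkc in Dpep1-only cells of Foxn1Lin female had 63.0% of its UMIs in 1 barcode.

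The reporter asks whether cells have a history of Foxn1 expression. The tdTomato transcript stood at 33.5 CPM (95% Poisson interval 26.6 to 41.5) in Smoc2 and Dpep1 fibroblasts of Foxn1Lin female and 36.3 CPM (24.7 to 51.5) of Foxn1Lin male, and at 0 in the wild-type male. There 0 of 180 thinned cells held a reporter UMI, which allows a share of cells with a UMI of up to 1.67% at a floor of 3 counts. Barcodes with Epcam and no Pdgfra had 744 and 1211 CPM, and empty droplets 237 and 580 CPM. Pi16 fibroblasts stood at 17.9 (14.8 to 21.4) and 15.8 (8.42 to 27.0) CPM, and Ptn fibroblasts at 89.8 and 67.2 CPM. All fibroblast classes were thus below the empty droplets of their own library, which held 141 to 563 and 23 to 89 UMIs each. A cell's own RNA lowers the CPM of free RNA in its barcode, so this comparison cannot tell free RNA from the cell's own. The part of free RNA in the reporter counts was not tested. After thinning, 6.15% (3.89 to 9.16) and 6.19% (2.30 to 13.0) of the selected cells held a reporter UMI, against 53.5% and 69.2% of the Epcam barcodes, 2.66% (1.67 to 4.00) and 1.35% (0.0342 to 7.30) of Pi16 fibroblasts, and 7.79% (5.06 to 11.4) and 5.22% (3.62 to 7.26) of Ptn fibroblasts, all at 2000 UMIs. The intervals of these shares overlapped between the selected cells and Pi16 fibroblasts, while those of the female levels in CPM did not. Before thinning the median depths were 6630.5 and 8481.5 UMIs in the selected cells and 9886 and 12843 in the Epcam barcodes. In Foxn1Lin male 1 barcode held 64.5% of the reporter UMIs, and without it the level was 13.0 CPM; without the fullest barcode of the female library it was 26.2 CPM.

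**Figure D5:**
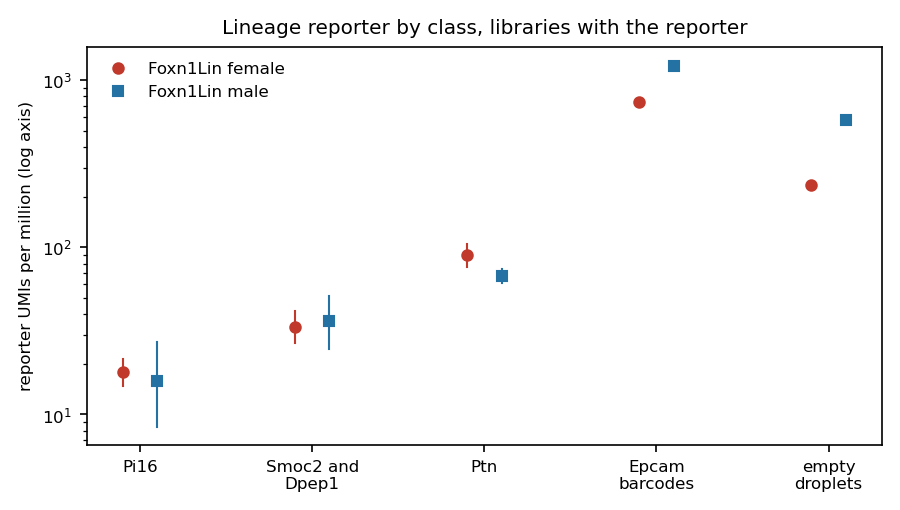
Reporter level in CPM (vertical log axis) in the classes of both libraries with the reporter, with 95% Poisson intervals of the counts as bars for barcodes (none for empty droplets). Smoc2 and Dpep1 fibroblasts lie at 33.5 and 36.3, below the empty droplets at 237 and 580, and without the fullest barcode of each class the male values are 13.0 for them and 11.53 for Pi16 fibroblasts.

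Within Smoc2 and Dpep1 fibroblasts the libraries were compared by ratio, with no test, since each group had 1 library. A gene was counted when it had at least 30 UMIs in the higher library and differed at least 4-fold. The selected cells summed to 2481319, 854290 and 1357502 UMIs. A count of 30 UMIs was therefore the lowest level in CPM in Foxn1Lin female and the highest in Foxn1Lin male, so both directions did not have an equal floor. Of 8205 genes 159 were higher (1.94%) and 66 lower (0.804%) in Foxn1Lin female than in Foxn1Lin male, where sex and library cannot be told apart. Of 6557 genes 22 were higher (0.336%) and 74 lower (1.13%) in Foxn1Lin male than in the wild-type male, where genotype and library cannot be told apart. With at least 100 UMIs in the higher library the counts were 39 higher and 33 lower in the female, and 7 higher and 24 lower in Foxn1Lin male. Xist, the transcript of the silenced X chromosome, had 1548 UMIs in the female and 0 in the male, as the labels have it, and Uty of the Y chromosome 0 and 65.

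The female library carried Sema3c, a semaphorin, at 864 CPM against 9.36 in Foxn1Lin male (8 UMIs; log2 ratio 6.53, interval 5.55 to 7.74), and its empty droplets held 2308 CPM against 25.4. Gm19951 and Gm11867, at 237 and 114 CPM against 2.34 and 1.17, were likewise higher in the female empty droplets, at 1006 and 265 CPM. The part of free RNA in these was not tested. Fam155a, the fifth, was at 33.9 against 1.17 CPM, from 84 and 1 UMIs. Sult1e1, which sulfates estrogens, had the reverse difference, at 0.806 CPM (2 UMIs) in the female and 137 CPM (117 UMIs) in Foxn1Lin male (log2 ratio -7.41, interval -10.5 to -5.52), and at 89.1 CPM in the wild-type male. Other fibroblasts showed Sult1e1 at 0.793, 48.4 and 36.2 CPM. Tnfsf8, the CD30 ligand, was at 1.61 against 125 CPM, and Fam180a and Cyp2e1 were also lower in the female.

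Between the male libraries Nrg1, neuregulin-1, was at 3.51 CPM in Foxn1Lin male and 94.3 CPM in the wild type (3 and 128 UMIs; log2 ratio -4.75, interval -7.04 to -3.17), and Sorcs2, Ifi44, Hpse2 and Ccdc3 were also lower. Higher were the reporter, Ighm, Gm17167, Asic2 and Stc1. Ighm had 97.9% of its Foxn1Lin male UMIs in 1 barcode. Without that barcode it stood at 24.9 CPM, against 33.1 CPM in the wild type, or 17.1 CPM without the fullest barcode there. Stc1, stanniocalcin-1, was at 41.0 against 4.42 CPM (35 and 6 UMIs; log2 ratio 3.21, interval 1.95 to 4.75).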

How the data were processed

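The deposited matrices hold raw UMI counts per gene and barcode, made by the authors with Cell Ranger (version 7.01 in the labels, 7.0.1 in the file header) on GRCm38/mm10 with reporter sequences added, introns included. The deposited library summaries give, in percent of reads, a saturation of 52.1, 81.0 and 72.8 for Foxn1Lin female, Foxn1Lin male and the wild-type male. Gene positions are those of GENCODE vM21.

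The members and gene lists were chosen with earlier results of these data known. No doublets were removed in the main fit. Empty droplets were uncalled barcodes with totals near the most frequent total of their library (141 to 563, 23 to 89 and 29 to 112 UMIs). Counts were summed per library and class and tested with edgeR 4.0.16 (quasi-likelihood, TMM, library block, filterByExpr with a minimum count of 10), with Benjamini-Hochberg adjustment over all tested genes and a threshold of 0.05. The 9 genes of the rule, Abca8a and Svep1 were not tested. The block takes up differences in level between libraries, so p-values weigh a class difference against its variation between these libraries. The labels do not say that libraries are biological replicates, and that variation may be technical.

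Named genes were the highest and lowest fold changes (12 each way against other fibroblasts, 6 against Pi16 and Ptn fibroblasts, 5 among subsets and between libraries) among those that passed in the same direction in 3 libraries with at least 20 CPM in the higher class of each. Members of the lists were named beside them. On simulated counts for members against other fibroblasts the test recovered 76% of 2-fold and 99% of 4-fold changes, with 9 false calls among 12744 genes, and for Smoc2-only against Dpep1-only cells 15% and 86% among 3496 genes. All genes shared a single dispersion there (0.0171 and 0.0974), and the 200 changed genes had a mean of at least 20 counts. A simulated class difference was the same in each library, while the real makeup of other fibroblasts was not. These figures therefore do not carry over to the real counts. Thinning drew 2000 UMIs per barcode, and the highest 3.9% of Scrublet scores (scanpy 1.11.5) were left out as an alternative, as were DESeq2 1.42.0 and other settings. A ratio with a count of 0 was taken at a floor of 3 counts per library. Intervals are 95% exact ones from scipy 1.17.1.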

Additional observations from a re-analysis of the deposited data

How the results depend on the processing

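The classes were paired within libraries in every test, and groups could not be paired, since each had 1 library. Genes higher and lower against other fibroblasts were 315 and 745 with no filter, 0 and 0 with no library block, 266 and 394 against only fibroblasts without Pi16 and with little Ptn, and 14 to 456 and 55 to 462 with 1 library left out. Against Pi16 fibroblasts they were 287 higher with DESeq2, 13 and 68 with no block, 261 and 269 when thinned, 670 lower with no filter, and 31 to 689 and 88 to 530 with 1 library left out. Against Ptn fibroblasts they were 193 and 97 with no block, 404 higher when thinned, 1029 lower with no filter, 403 and 381 against only Ptn fibroblasts with at least 3 Smoc2 and Dpep1 UMIs (an alternative chosen after seeing the data), and 426 to 487 and 419 to 499 with 1 library left out. For Smoc2-only against Dpep1-only cells 7 and 40 passed with no filter, 0 lower with no block or without the highest doublet scores, 1 higher when thinned, 2 lower with stricter quality limits, and 0 to 9 and 0 to 14 with 1 library left out. The share of members moved to 17.7% and 8.39% in Foxn1Lin female and the wild type with at least 5 UMIs of Smoc2 and Dpep1, and to 24.5% and 8.17% in Foxn1Lin female and male with the rule on thinned cells. The reporter moved to 23.7 and 14.0 CPM with at least 5 such UMIs, and 6.15% and 6.19% of thinned cells held it. Genes at least 4-fold different between libraries were 39, 33, 7 and 24 with at least 100 UMIs and 95, 28, 4 and 23 when thinned, for female higher and lower and Foxn1Lin male higher and lower. Dkk2 against other fibroblasts turned to a log2 fold change of 1.14 against only fibroblasts without Pi16 and with little Ptn. Of the values of named genes under alternatives, 256 of 311 against other fibroblasts, 141 of 154 against Pi16, 151 of 156 against Ptn fibroblasts and 17 of 46 among subsets kept their direction and passed. Where a count or call moved, the cause was not tested.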

Other observations

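Lipid and redox genes were measured in the same fits. Of 14 ABCA transporter and apolipoprotein genes Abca6, Abca9, Abca8b and Lpl were higher and Abcg1 lower in Smoc2 and Dpep1 fibroblasts than in other fibroblasts. Over all genes 0.965% were higher and 1.53% lower. Against Pi16 fibroblasts Apoe, Apod and Lpl of this list were higher and Abca5 lower, and Abca6, Abca9 and Abca8b did not pass as higher. Lpl, lipoprotein lipase, stood at 872, 545 and 905 CPM in the libraries named in the same order as before, against 538, 384 and 592 (log2 fold change 0.63 ± 0.11, edgeR adjusted p = 0.0204). Pparg, the regulator of fat cell formation, was at 59.6, 24.6 and 19.2 CPM against 21.2, 5.64 and 6.81 (log2 fold change 1.64 ± 0.19, edgeR adjusted p = 0.00609), and it did not pass against Pi16 fibroblasts (log2 fold change 0.49, edgeR adjusted p = 0.416). Pparg and Lpl were the 2 higher of 14 measured adipogenic genes against other fibroblasts, with 0 lower and 12 not passing. The 4 fat cell genes Adipoq, Plin1, Cidec and Retn summed to 1.61, 0 and 2.95 CPM in these cells, with Adipoq and Plin1 at 0 in both Foxn1Lin libraries and Retn at 0 in both male ones. Of 22 glutathione, eicosanoid and steroid genes 5 were higher and 1, Ltc4s, lower against other fibroblasts, beside 0.965% and 1.53% over all genes.

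The remaining lists are given as genes past the test against other fibroblasts, where 0.965% of all genes were higher and 1.53% lower. They were 2 higher and 1 lower of 16 collagens, 2 and 3 of 20 basement membrane genes, 2 and 3 of 38 proteoglycan and elastic fibre genes, 4 and 1 of 25 proteases and inhibitors, 2 and 0 of 12 insulin-like growth factor genes, 1 and 2 of 13 retinoid genes, 2 and 0 of 17 complement genes, 1 and 0 of 21 immediate early and stress genes, 1 and 1 of 16 nuclear receptors, 1 and 1 of 29 transcription factors, 1 and 2 of 28 receptors and 1 and 0 of 9 general fibroblast genes. The capsular and medullary lists had 0 higher and 1 lower each, of 10 and 8 genes. Against Pi16 fibroblasts 6 of the 21 immediate early and stress genes were higher and 1 lower, beside 4.73% and 4.36% over all genes. Against Ptn fibroblasts 2 of these 21 were higher and 3 lower, beside 5.59% and 5.68%. Hspa1a, Hspa1b and Dnajb1 were among those higher in the former and lower in the latter comparison.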
